A study of Mus musculus with 4 samples.

Results

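*Krt4*, *Tgm3*, *Mt4*, *Chil3* and *Gsdmc* are 5 of the 328 genes on an in situ panel that was read out in mouse skin, skin wounds and buccal mucosa, the lining of the cheek. They were chosen for their level in the suprabasal-like cells of buccal mucosa, the layers above the basal cells, so their buccal levels are given as a description and are not tested. The rule used buccal levels alone, although skin results were known when the genes were chosen, and the question here was which of the 5 genes appeared in skin and wounds that express PITX1, and in which cells.

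Xenium counts single transcripts in place in tissue sections and assigns them to outlined cells. The mice were Tet-On TRE-*Pitx1*/*Krt5*-rtTA littermates, in which doxycycline switches on *Pitx1* in cells that use the *Krt5* promoter, the basal cells of stratified epithelia and hair follicles. Control littermates were given normal chow (vehicle in the labels), PITX1+ littermates doxycycline chow, and buccal mucosa came from Control mice of both sexes. Dorsal skin was sampled unwounded from females (1 slide with 2 Control and 2 PITX1+ sections) and from males (1 slide with 1 Control and 2 PITX1+ sections), and on day 4 after wounding from males (1 slide with 1 Control and 2 PITX1+ wounds), beside 7 buccal sections on 1 slide. The labels state that each skin slide holds both conditions but not which section is which. Condition was therefore taken from the order of the sections on a slide, which is its only basis for the wounds. In unwounded skin the number of cells with transcripts of at least 3 genes was compared with section totals listed by the study. In each section it was within 0.493% of the nearest total of the same condition and at least 9.08% from any total of the other. Animals are not named, so p-values measure the spread between sections only. Slide and sex are the same variable in unwounded skin, and they cannot be told apart.

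Stratified epithelia renew from a basal layer, and cells that leave it switch on suprabasal genes that differ between cornified skin and softer mucosa. *Krt4* encodes a type II keratin that forms filaments in suprabasal cells of mucosal linings such as mouth and oesophagus. *Tgm3* encodes a transglutaminase that cross-links proteins of the cornified envelope and of the hair sheath, and *Mt4* a metal-binding metallothionein of differentiating stratified epithelium. *Gsdmc* encodes a gasdermin, a protein that forms membrane pores once it is cleaved, and *Chil3* a chitinase-like protein best known from macrophages and neutrophils.

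The promoters of *Tgm3* and *Mt4* are shown because both genes have a TATA-box motif close to the start site and, among clusters of at least 20 skin or wound cells, share the cluster with their highest level, the hair cells described below. RefSeq (GRCm38.p6) gave a promoter window of 250 bases before to 50 after the start for 3 of the 5 genes, *Tgm3*, *Mt4* and *Chil3*. The 100 bases before the start are printed 5′ to 3′, at chr2:130012240-130012339 (plus strand, a start within the annotated *Tgm3* gene) and at chr8:94137104-94137203 (plus strand), with capitals for the letters TATAAA.
Tgm3: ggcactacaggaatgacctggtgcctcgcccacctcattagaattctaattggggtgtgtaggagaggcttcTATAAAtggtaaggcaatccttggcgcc
Mt4: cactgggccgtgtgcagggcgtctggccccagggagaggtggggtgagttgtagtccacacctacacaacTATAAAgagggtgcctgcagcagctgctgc
The motif began at position -28 in *Tgm3* and at -30 in *Mt4*, while in *Chil3* the same letters began at -3. TATAAA was found on either strand in 13.62% of 32851 promoters of this length. TAATCC, the letters bound by paired-like homeodomain proteins such as PITX1, and AACCNGTT, those of Grainyhead-like proteins, were in none of the 3 windows and in 7.06% and 2.09% of all promoters. A match is a stretch of letters and not a measured site, and the lack of a match in a window does not show that a protein is not bound. In a separate assay of bound DNA, the study reported PITX1 close to *Tgm3*, without a change of the histone mark H3K4me3 there.

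Cells with at least 10 transcripts were grouped by the other panel genes, and groups that carried basal, suprabasal, activated, hair follicle or cycling keratinocyte markers were pooled as keratinocyte-like cells. Levels are given as CPM (counts per 1000000 panel transcripts of the same cells), because Control skin was shallower than PITX1+ skin and wounds, with 474847 to 749248 transcripts against 2832562 to 5581930 in PITX1+ skin, 136365 to 2368603 in buccal mucosa and 1622746 to 5430303 in wounds. Probe efficiency differs between genes, so CPM was compared within a gene only. As a background, the mean of 20 negative control probes in keratinocyte-like cells, scaled in the same way, was 46.8 to 59.5 CPM in Control skin, 12.2 to 22.1 CPM in PITX1+ skin, 30.7 CPM in the Control wound and 50.3 and 58.1 CPM in the PITX1+ wounds. One buccal section had no keratinocyte-like cells, which left 6 for these values.

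*Krt4* rose in PITX1+ skin from a Control level close to that of the negative control probes. Its level in keratinocyte-like cells was 63.4, 83.1 and 48.4 CPM in Control sections 1, 2 (female) and 3 (male) and 294, 772, 883 and 196 CPM in PITX1+ sections 1, 2 (female), 3 and 4 (male). The groups did not overlap, and all PITX1+ sections were above their own negative control probes. Lack of overlap was not counted over all panel genes, so here and below it has no background. Of the Control sections, section 2 alone had a 95% exact Poisson interval (52.1 to 126 CPM) above the mean of its probes (46.8 CPM). The log2 change was 3.15 (SE 0.69) with no background removed, so its size above the background is not known, and edgeR (quasi-likelihood test, slide as a covariate) gave an adjusted p of 0.0175, by Benjamini-Hochberg over all panel genes. The call was lost without Control section 1 (adjusted p = 0.0680 in edgeR) or 2 (adjusted p = 0.0558), with log2 values of 3.01 and 3.29. It was also lost when only transcripts over the nucleus were counted, where the log2 difference was 2.17 (adjusted p = 0.0951 in edgeR). Still, *Krt4* in buccal keratinocyte-like cells ranged from 89767 to 108495 CPM with a median of 93637, of which the mean of PITX1+ skin was 0.572%. Cells that should lack the gene, vascular-like and mesenchymal-like cells, held 29.7 CPM of *Krt4* in Control skin and 28.6 CPM in PITX1+ skin, from 2 and 14 transcripts, with a transcript in 0.0912% and 0.142% of cells (median depth 24 and 39 transcripts, against 37 and 76 in keratinocyte-like cells).

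*Tgm3* rose as well, from a level clearly above the background. It stood at 426, 642 and 332 CPM in Control sections 1 to 3 and at 2348, 5206, 2441 and 1352 CPM in PITX1+ sections 1 to 4, without overlap. The log2 change was 2.73 (SE 0.46, adjusted p = 0.0101 in the same edgeR test), a fold of 6.64, and the mean of PITX1+ skin was 5.58% of the buccal median of 50883 CPM (range 46384 to 61265).

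*Mt4* rose by less than the other genes that passed the test. Its level was 1419, 1564 and 1633 CPM in Control sections and 1970.0, 2312, 2874 and 3265 CPM in PITX1+ sections. All 4 PITX1+ sections were above every Control section, with a log2 change of 0.71 (SE 0.19, adjusted p = 0.0312 in edgeR). Leaving out single sections gave adjusted p-values of 0.0376 to 0.131, and the call was lost without Control section 1 (0.125), Control section 2 (0.102), PITX1+ section 2 (0.131) or PITX1+ section 3 (0.0536). In all, 10 alternative settings lost the call, 1 turned the direction and 9 kept the call. The others that lost it were transcripts over the nucleus (log2 difference 0.53, adjusted p = 0.152 in edgeR), library size in place of TMM (0.0724), no slide covariate (0.269), the male slide alone (0.178), cells with at least 20 transcripts (0.0528) and cells within 150 µm of the surface (0.232), and the direction turned without hair follicle-like clusters (-0.55). The buccal median was 41453 CPM (range 33060 to 42534), of which Control skin already held 3.71% and PITX1+ skin 6.28%.

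*Gsdmc* and *Chil3* did not pass the test over both slides. *Gsdmc* was at 650.2, 509.9 and 1024 CPM in Control sections and at 2097, 4352, 643 and 1092 CPM in PITX1+ sections, where PITX1+ section 3 lay within the Control range (log2 difference 1.29, SE 0.79, adjusted p = 0.226 in edgeR). In vascular-like and mesenchymal-like cells, which should lack the gene, *Gsdmc* was 401 CPM (95% exact Poisson interval 264 to 584) in Control skin, beside 672 CPM in the pooled Control keratinocyte-like cells, and 237 CPM in PITX1+ skin, beside 2482 CPM. Without Control section 3, the only male one, *Gsdmc* passed, with 2.78 (SE 0.43, adjusted p = 0.00947 in edgeR), where 18.9% of genes were called higher. With the slide as a covariate, that fit compares the conditions on the female slide alone. *Chil3* was at 293, 223 and 55.4 CPM in Control sections and at 147, 118.5, 36.1 and 16.1 CPM in PITX1+ sections, with overlap between the groups (log2 difference -0.87, SE 0.41, adjusted p = 0.132 in edgeR). The buccal medians were 15080 CPM for *Gsdmc* (range 9727 to 22833) and 9762 CPM for *Chil3* (range 2234 to 19220).

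Thus 3 of the 5 genes were called higher and none lower, where 13.4% of the 328 genes were called higher, 18.3% lower and 31.7% in either direction, and where the median log2 difference over all genes was -0.06. With all cells of a section summed in place of keratinocyte-like cells, where 10.4% of genes were called higher, the same 3 genes passed, with log2 changes of 2.63 for *Krt4* (SE 0.74, adjusted p = 0.0398 in edgeR), 2.64 for *Tgm3* (SE 0.43, adjusted p = 0.00754) and 0.94 for *Mt4* (SE 0.27, adjusted p = 0.0419). In such sums *Krt4* lost its call without Control section 1 (adjusted p = 0.0900 in edgeR), 2 (0.0962) or 3 (0.127) or PITX1+ section 2 (0.130). *Mt4* kept its call only without PITX1+ section 4 (0.0488) and had adjusted p-values of 0.0610 to 0.145 without each of the other sections, and *Tgm3* kept its call throughout (0.00399 to 0.0350). Without the slide covariate all 3 calls were lost, with adjusted p = 0.133 for *Krt4*, 0.103 for *Tgm3* and 0.156 for *Mt4*. In whole sections, fewer cells of a type and less RNA per cell cannot be told apart.

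**Figure D1:**
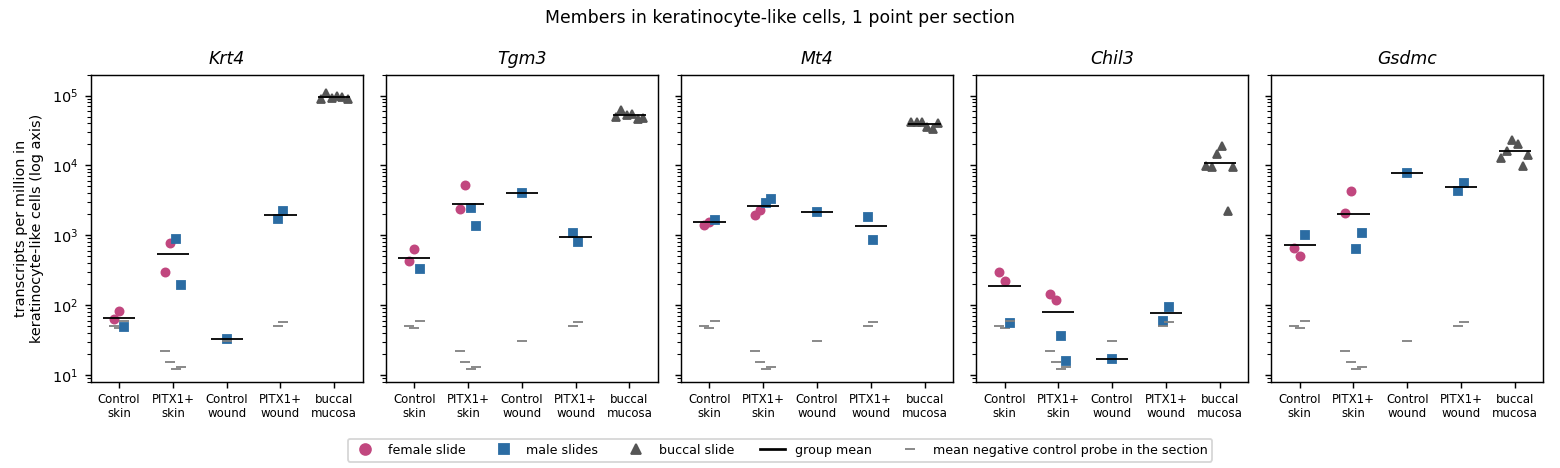
Level of each gene in keratinocyte-like cells, in CPM on a log axis, with 1 point per section, a line at the group mean and short dashes at the mean negative control probe of the section. Control *Krt4* (48.4 to 83.1 CPM) sits near the dashes, PITX1+ skin (196 to 883 CPM) and PITX1+ wounds (1688 and 2196 CPM) sit above them, and every gene is highest in buccal mucosa.

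The calls of *Tgm3* and *Mt4* were lost without hair follicle-like clusters. These clusters made up 22.5% of Control and 22.7% of PITX1+ skin cells of all classes, and a larger share of the keratinocyte-like cells tested. Their most frequent Control cluster, led by *Wfdc3*, *Krt15* and *Fcgbp*, was 51.7%, 49.7% and 37.8% of keratinocyte-like cells in Control sections 1 to 3. It was 2.83%, 1.92%, 3.29% and 7.49% in PITX1+ sections 1 to 4. With 30 clusters, a cluster led by *Fcgbp*, *Wfdc3* and *Clca3a2* was named basal keratinocyte-like. Leaving out the class may thus also remove basal-like Control cells, and the part of hair cells in the lost calls was not tested. Control sections had 0 cells of a hair follicle-like cluster led by *Dsg4*, *Krtap17-1* and *Lrrc15*, genes of the hair shaft and of growing follicles, while PITX1+ skin had 1161 such cells on the female and 885 on the male slide. These cells held *Mt4* at 70230 and 47737 CPM and *Tgm3* at 47223 and 30211 CPM. Without all hair follicle-like clusters the log2 change of *Krt4* was 3.75 (SE 0.87, adjusted p = 0.0365 in edgeR, with 8.54% of genes called higher), whereas *Tgm3* no longer passed (1.86, SE 0.90, adjusted p = 0.152) and the difference of *Mt4* changed sign (-0.55, SE 0.52, adjusted p = 0.457). *Krt4* itself was low in the hair shaft cluster, with 6 transcripts in the female and 12 in the male cells.

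Other epidermal genes gave a mixed picture in the same edgeR test. Counts in each list are read against the 13.4% of all genes called higher, 18.3% called lower and 31.7% called either way. Of 11 cornified envelope genes, 2 were called higher and 1 lower, with a median log2 difference of 1.11 against -0.06 over all genes. *Sprr1b* and *Sprr1a*, small proline-rich cross-linked proteins, rose by 4.09 (SE 0.90, adjusted p = 0.0175) and 2.66 (SE 0.46, adjusted p = 0.0101), *Sprr2d* differed by 3.72 (adjusted p = 0.0542), and the filaggrin relative *Flg2* fell by 2.41 (SE 0.41, adjusted p = 0.0101). Of 6 suprabasal keratins and desmosomal cadherins none was called higher and 2 were called lower (median -0.52), the skin keratin *Krt77* with -3.09 (adjusted p = 0.0110) and the desmoglein *Dsg1a* with -0.91 (adjusted p = 0.0179). *Krt78* differed by -1.28 (adjusted p = 0.0759) and *Dsg1b* by 0.82 (adjusted p = 0.0739).

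Of 3 stress keratins 1 was called higher, *Krt16*, with 4.69 (SE 0.59, adjusted p = 0.00366 in edgeR), and the other two were *Krt6a* with 1.79 (adjusted p = 0.195) and *Krt17* with 0.53 (adjusted p = 0.323). Of 11 protease inhibitors and alarmins 2 were called higher and 2 lower (median 1.17), beside 13.4% and 18.3% of all genes. The protease inhibitor *Slpi* rose by 5.91 (adjusted p = 0.00148) and the alarmin *S100a8* by 4.07 (adjusted p = 0.00952), while the inhibitor *Wfdc3* had -3.45 (adjusted p = 0.00366) and *Cstdc5* 2.32 (adjusted p = 0.271). Of 4 hair shaft and root sheath genes 3 were called higher (median 2.31), *Dsg4* with 4.15, *Dlx3* with 2.56 and *Krtap17-1* with 2.06, and the companion layer keratin *Krt75* differed by 0.06 (adjusted p = 0.881). Without hair follicle-like clusters the median log2 differences were 0.51 for the cornified envelope genes, -0.89 for the suprabasal keratins and cadherins, 2.96 for the stress keratins, 1.11 for the protease inhibitors and alarmins and 0.91 for the hair genes, against -0.0017 over all genes.

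Cells with *Krt4* were few. A *Krt4* transcript was found in 0.379%, 0.452% and 0.167% of keratinocyte-like cells in Control sections 1 to 3, and in 1.58%, 3.05%, 4.21% and 1.26% in PITX1+ sections 1 to 4, against 85.4% to 94.97% in buccal sections. The median keratinocyte-like cell held 25 to 46 transcripts in Control and 72 to 100 in PITX1+ sections. Cells were then thinned to 20 transcripts, and those with fewer were left out, which kept 5513 of 6328, 4061 of 4871 and 2696 of 4196 cells in Control sections and 21590 of 22626, 31735 of 32709, 20136 of 21312 and 11878 of 12234 in PITX1+ sections. The shares of the kept cells were 0.120%, 0.192% and 0.112% against 0.396%, 0.679%, 1.13% and 0.272%, a difference of 0.478 percentage points without overlap. The two-sided exact permutation p was 0.0571 (adjusted p = 0.0952 over the 5 genes), which is the smallest that 3 sections against 4 can give. Unlike edgeR, the permutation took no account of the slide. *Tgm3* (mean 0.895% and 3.79%) and *Mt4* (2.44% and 3.73%) also did not overlap, with the same exact permutation p. How many of all panel genes do not overlap, in shares or in CPM, was not counted, so a lack of overlap has no background here. For *Mt4* the lack of overlap did not hold at 40 transcripts a cell, which kept 1071 of 4196 cells in Control section 3 and where the mean shares were 6.25% and 5.98% (exact permutation p = 0.857), or without thinning, where the groups overlapped (exact permutation p = 0.114). *Gsdmc* (1.49% and 2.89%, exact permutation p = 0.114) and *Chil3* (0.440% and 0.210%, exact permutation p = 0.229) overlapped. Without thinning *Gsdmc* did not overlap, with mean shares of 3.02% and 10.9% (exact permutation p = 0.0571, adjusted p = 0.0952).

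The classes of cells that held the transcripts differed by gene and tissue. In buccal mucosa, suprabasal-like cells held 91.2% of the *Krt4* transcripts, 90.6% of *Tgm3*, 93.3% of *Chil3*, 89.6% of *Gsdmc* and 72.9% of *Mt4*, whose share in basal-like cells was 25.6%. In PITX1+ skin with sections pooled, suprabasal-like cells held 69.8% of *Krt4* and 69.8% of *Gsdmc*, whereas *Tgm3* was split between suprabasal-like (44.0%) and hair follicle-like cells (39.8%). *Mt4* lay mainly in hair follicle-like cells there, with 64.4%, against 16.2% in Control skin, where 76.6% of *Mt4* was suprabasal-like. The suprabasal-like share of *Krt4* included a cluster led by *Areg* that lay deep, at a median of 201 to 364 µm in the PITX1+ sections, and held 24.4% of all *Krt4* transcripts of PITX1+ skin. The pooled share describes neither slide. Suprabasal-like cells held 70.3% and 81.8% of *Krt4* in the female and 52.7% and 55.8% in the male PITX1+ sections, and of this the cluster led by *Areg* held 88 of 752 and 243 of 2615 *Krt4* transcripts in the female but 819 of 1629 and 135 of 274 in the male ones. With 60 clusters, the cluster led by *Areg* was named activated keratinocyte-like, so the split of *Krt4* between these classes rests on the naming. In PITX1+ wounds, 66.9% of *Krt4* lay in suprabasal-like and 20.5% in activated keratinocyte-like cells, which made up 5.03% of the cells of these sections. The cluster led by *Areg* held 21.1% of *Krt4* there and is counted among the suprabasal-like cells.

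**Figure D2:**
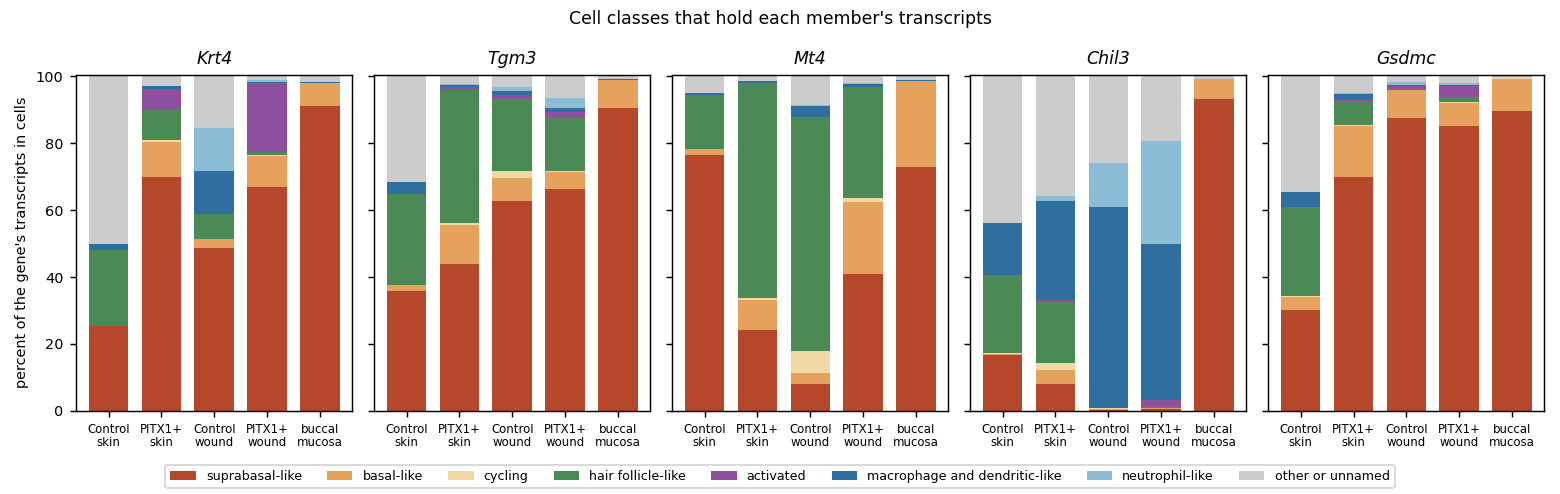
Share of each gene's transcripts (in cells, percent) held by each class of cells, in Control skin, PITX1+ skin, the Control wound, PITX1+ wounds and buccal mucosa, with sections of a group pooled. Suprabasal-like cells hold most *Krt4* and *Gsdmc* in PITX1+ skin (69.8% each, with 24.4% of *Krt4* in the deep cluster led by *Areg*, mostly from the male slide), hair follicle-like cells most *Mt4* (64.4%), and macrophage and dendritic-like cells are the largest class for *Chil3* in wounds.

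*Krt4* lay mostly near the surface in the female and mostly deeper in the male PITX1+ sections. Depth was measured from the upper edge of the keratinocyte-like cells, with a limit of 150 µm that was chosen after the maps had been seen. In Control sections 1 to 3, 92.4%, 87.4% and 66.0% of keratinocyte-like cells lay within this limit. Their most frequent hair follicle-like cluster, led by *Wfdc3*, *Krt15* and *Fcgbp*, had a median depth of 97.3, 111 and 170 µm, so the surface values of Control skin include cells of this cluster. *Loricrin* (*Lor*), a protein of the outermost epidermis, served as a check, with 83.0% to 99.95% of its transcripts within 150 µm of the surface in all 10 skin and wound sections. On the female slide 71.9% and 84.3% of *Krt4* transcripts in PITX1+ sections 1 and 2 lay within 150 µm, with a median depth of 39.4 and 19.7 µm. On the male slide 1.18% and 13.4% did in PITX1+ sections 3 and 4, with a median depth of 283 and 213 µm. All keratinocyte-like cells of these 4 sections had 34.97%, 25.6%, 22.9% and 47.6% of their number within that depth.

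Within 150 µm of the surface, *Krt4* stood at 60.8, 72.5 and 68.5 CPM in Control sections and at 462, 1428, 74.7 and 68.1 CPM in PITX1+ sections. The male PITX1+ values are thus beside the Control values at the surface, and both female values are above them. Over all depths the negative control probes were at 46.8 to 59.5 CPM in Control sections and at 12.2 and 12.9 CPM in the male PITX1+ sections, so equal CPM does not mean an equal level above background. Deeper than 150 µm the PITX1+ values were 152, 223, 1013 and 277 CPM. *Krt4* in the surface cells alone had a log2 difference of 3.54 (SE 1.23), which did not pass (adjusted p = 0.194 in edgeR), where 1.23% of 325 genes were called in either direction. The change over all depths was not shown to differ between the slides (log2 difference of the changes -0.05, SE 1.54, adjusted p = 0.993 for the interaction in edgeR), and the difference in place was not tested.

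*Pitx1*, the induced gene, was at 60.8, 52.9 and 13.8 CPM in keratinocyte-like cells of Control sections, at 44.99 and 79.1 CPM in the female PITX1+ sections and at 1069 and 871 CPM in the male ones. The negative control probes were at 50.2, 46.8 and 59.5 CPM in these Control sections, at 22.1 and 15.4 CPM in the female and at 12.2 and 12.9 CPM in the male PITX1+ sections. *Pitx1* was therefore near or below the probes in Control skin, above their own probes in the female PITX1+ sections and far above them in the male ones, and the change differed between slides by 5.30 on the log2 scale (SE 0.82, adjusted p = 0.0197 for the interaction in edgeR, which called 4.57% of genes). The male Control value rests on 2 *Pitx1* transcripts in 1 section and no background was removed, so the size of the slide difference is uncertain. The condition of the female sections rests on their order and cell numbers, and *Pitx1* CPM, which overlapped between the conditions on the female slide, gave no check of it. In the male PITX1+ sections 2.51% and 10.5% of *Pitx1* transcripts lay within 150 µm of the surface, so that *Pitx1* and *Krt4* were both deep there. Among keratinocyte-like cells with 100 to 300 transcripts in PITX1+ sections 3 and 4, *Pitx1* was found in 19.2% and 21.8% of cells with *Krt4* and in 14.1% and 11.9% of cells without it. The cells with *Krt4* also held more transcripts in these sections, and the part of that in these shares was not tested.

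**Figure D3:**
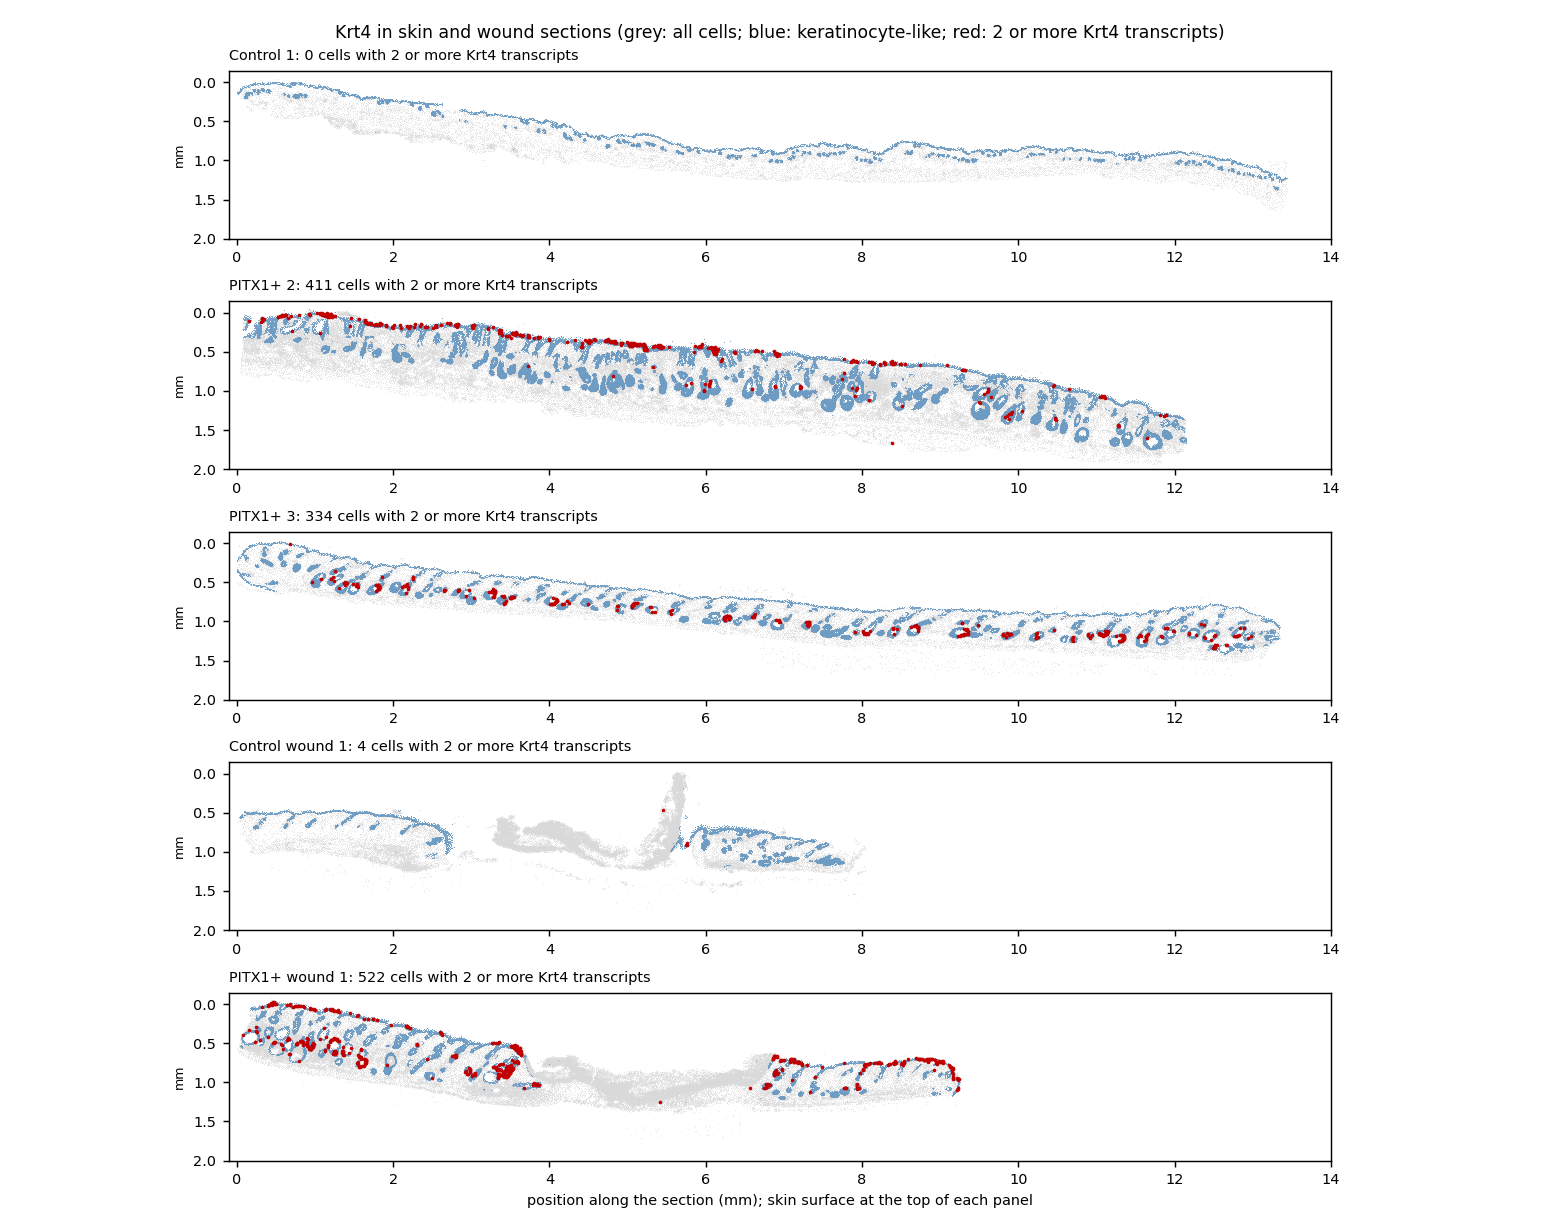
Cells of 5 sections, turned so that the skin surface lies at the top (position in mm), with all cells in grey, keratinocyte-like cells in blue and cells with 2 or more *Krt4* transcripts in red. The red cells (0 in Control section 1, 411 in PITX1+ section 2, 334 in PITX1+ section 3, 4 in the Control wound and 522 in PITX1+ wound 1) line the surface in the female PITX1+ section, lie deeper in the male one and occupy both depths in the PITX1+ wound.

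The other genes had places of their own. *Gsdmc* lay mostly near the surface in every section, with 81.2% to 98.1% of its transcripts within 150 µm in PITX1+ skin, where 22.9% to 47.6% of keratinocyte-like cells did. In Control sections the share of *Gsdmc* was 88.2%, 90.4% and 99.3%, beside 92.4%, 87.4% and 66.0% of the cells. A high share alone therefore says little of a gene there. *Mt4* was higher near the surface in all Control sections, at 1481, 1663 and 2182 CPM within 150 µm and 60.8, 60.8 and 307 CPM deeper. *Gsdmc* was 600, 491 and 1439 CPM within 150 µm and 1764, 791 and 23.6 CPM deeper. *Tgm3* was 420, 681 and 411 against 547, 60.8 and 142 CPM, so both genes differed in direction between Control sections. *Tgm3* followed *Krt4* in that 78.2% and 65.8% of its transcripts in the female and 3.900% and 17.1% in the male PITX1+ sections lay within 150 µm, against 87.5% to 99.4% in Control sections. Within that depth *Tgm3* stood at 4020, 7525, 684 and 598 CPM in PITX1+ sections 1 to 4, the male values beside those of Control sections. Deeper it was 942, 3268, 2726 and 1827 CPM. *Mt4* was shallow in Control sections (94.5% to 99.8%) and ranged from 10.4% to 63.9% in PITX1+ sections, lowest in PITX1+ section 3.

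**Figure D4:**
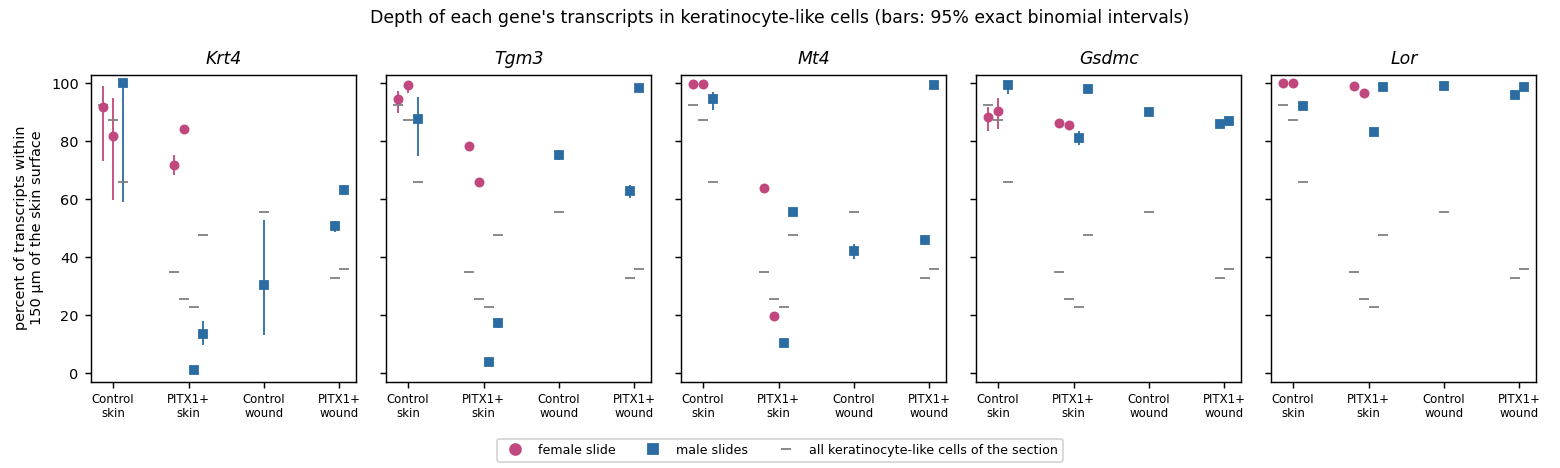
Percent of each gene's transcripts in keratinocyte-like cells that lie within 150 µm of the skin surface, 1 point per section with 95% exact binomial intervals, and dashes for the percent of keratinocyte-like cells at that depth. *Gsdmc* and the check gene *Lor* stay above 80% in all sections, beside 65.97% to 92.4% of the cells themselves in Control skin, while *Krt4* falls to 1.18% and 13.4% in the male PITX1+ sections.

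*Gsdmc* was the only one of the 5 genes for which the test of a difference between the slides passed. The change on the male slide was smaller by 3.43 on the log2 scale (SE 0.63, adjusted p = 0.0342 for the interaction in edgeR), where 3.35% of genes were called in that direction. With library size in place of TMM it was -2.71 and no longer passed (adjusted p = 0.0881 in edgeR). On the female slide alone the log2 change was 2.83 (SE 0.38, adjusted p = 9.7e-05), with 22.3% of genes called higher, and on the male slide alone the difference was -0.32 (SE 0.56, adjusted p = 0.680), where 18.6% were called higher, with the single Control section assumed to vary like the others. The interaction, and not these values of single slides, is the test of the difference. By place, *Gsdmc* had the following values, with 1 male Control section and no test between the slides. Within 150 µm of the surface it stood at 600, 491 and 1439 CPM in Control sections 1 to 3 and at 3952, 8170, 3753 and 2767 CPM in PITX1+ sections 1 to 4, without overlap (log2 difference 3.04, SE 0.89, adjusted p = 0.172 in edgeR). In the suprabasal-like cluster led by *Krt77*, *Flg2* and *Clca3a2*, it stood at 488, 406 and 1354 CPM in the Control sections and at 5357 and 4529 CPM in the male PITX1+ sections. *Krt4* in the same cells was 55.9, 59.0 and 100.8 CPM against 56.2 and 53.4 CPM. The share of keratinocyte-like cells that lay within 150 µm of the surface was 66.0% in Control section 3 and 22.9% and 47.6% in the male PITX1+ sections, and its part in the slide difference was not tested.

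With 1 Control wound, wounds are given as values with 95% exact Poisson intervals, which cover counting error only. *Krt4* in keratinocyte-like cells was 32.7 CPM in the Control wound, close to its negative control probes, and 1688 and 2196 CPM in the PITX1+ wounds. At least 2 *Krt4* transcripts were found in 4 cells of the Control wound and in 522 and 649 cells of the PITX1+ wounds. *Krt4* thus reached 2.07% of its buccal median, the highest share of this gene among the 4 groups of skin and wounds.

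*Gsdmc*, *Tgm3* and *Mt4* did not share that order over all depths. *Gsdmc* was 7902 CPM in the Control wound and 4321 and 5622 CPM in the PITX1+ wounds, which is 52.4% and 32.97% of its buccal median, and *Tgm3* was 3996 CPM against 1087 and 802 CPM. *Mt4* stood at 2186 CPM in the Control wound and at 1831 and 857 CPM in the PITX1+ wounds. Over all depths each of these 3 genes was therefore higher in the Control wound than in either PITX1+ wound, while *Krt4* was lower. Within 150 µm of the surface the order turned for *Gsdmc*, at 11018 CPM in the Control wound and 11897 and 14712 CPM in the PITX1+ wounds, and for *Mt4*, at 1423 CPM against 2697 and 2562 CPM. It did not turn for *Tgm3*, at 4663 CPM against 2189 and 2367 CPM. Of the keratinocyte-like cells 55.6% lay within that depth in the Control wound and 32.6% and 35.8% in the PITX1+ wounds, and the part of this in the levels was not tested. *Chil3* was 17.1 CPM in keratinocyte-like cells of the Control wound and 59.4 and 94.6 CPM in those of the PITX1+ wounds, beside negative control probes at 30.7, 50.3 and 58.1 CPM. *Pitx1* in keratinocyte-like cells was 641 and 326 CPM in the PITX1+ wounds, against 51.2 CPM in the Control wound.

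A suprabasal-like cluster led by *Krt1*, *Stfa3* and *Cstdc5* was found in all wounds, with 686 cells in the Control wound and 914 and 1319 in the PITX1+ wounds. *Krt4* in these cells was 98.4 CPM (58.3 to 155) in the Control wound and 5294 CPM (4931 to 5676) and 7144 CPM (6784 to 7517) in the PITX1+ wounds. *Gsdmc* was 18679 CPM against 21308 and 24595 CPM, *Tgm3* was 8006 CPM against 4952 and 4758 CPM, and *Mt4* was 202 CPM (142 to 279) against 4932 and 3917 CPM.

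The cells of this cluster were placed differently. Within 1000 µm of the wound bed, the longest stretch without keratinocyte-like cells, lay 524 of the 686 cells in the Control wound but 276 of 914 and 169 of 1319 in the PITX1+ wounds. *Krt4* in the cells near the bed was 119.7 CPM (71.0 to 189) in the Control wound and 4923 and 17625 CPM in the PITX1+ wounds, and in the cells farther away it was 0 of 32665 transcripts, where 3 counts would be 91.8 CPM, against 5469 and 4961 CPM. *Krt4* was thus higher in both PITX1+ wounds at either distance. *Mt4* in this cluster was 226 CPM (157 to 316) near and 91.8 CPM (18.9 to 268) far in the Control wound, against 2629 near and 6021 CPM far in PITX1+ wound 1. In PITX1+ wound 2 *Mt4* was 616 CPM (386 to 933) near and 4605 CPM far.

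*Krt4* was also found in activated keratinocyte-like cells led by *Aldh1a3*, *Sprr2d* and *Hbegf*, at 1737 CPM in 1652 cells and 1453 CPM in 3635 cells of the PITX1+ wounds and with 0 transcripts in 127 cells of the Control wound, where 3 counts would be 160.3 CPM. Unwounded Control skin had 0 of these cells. In unwounded PITX1+ skin the sections differed widely, with *Krt4* in these cells at 79.2 CPM in section 1 (37.97 to 146, 10 transcripts in 1295 cells), 1739 CPM in section 2 (1387 to 2153, 358 cells) and 4722 CPM in section 3 (4119 to 5389, 404 cells). PITX1+ section 4 had 1 *Krt4* transcript in 20 such cells.

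A few cells of skin and wounds fell into a suprabasal-like cluster made up mainly of buccal cells. The cluster led by *Sprr3*, *Krt78* and *Il1f6* held 5150 buccal cells with *Krt4* at 121823 CPM, and 21 cells of PITX1+ wounds with *Krt4* at 20400 CPM (16580 to 24836). It also held 17 and 5 cells of female and male PITX1+ skin, 3 of the Control wound and 0 of Control skin.

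**Figure D5:**
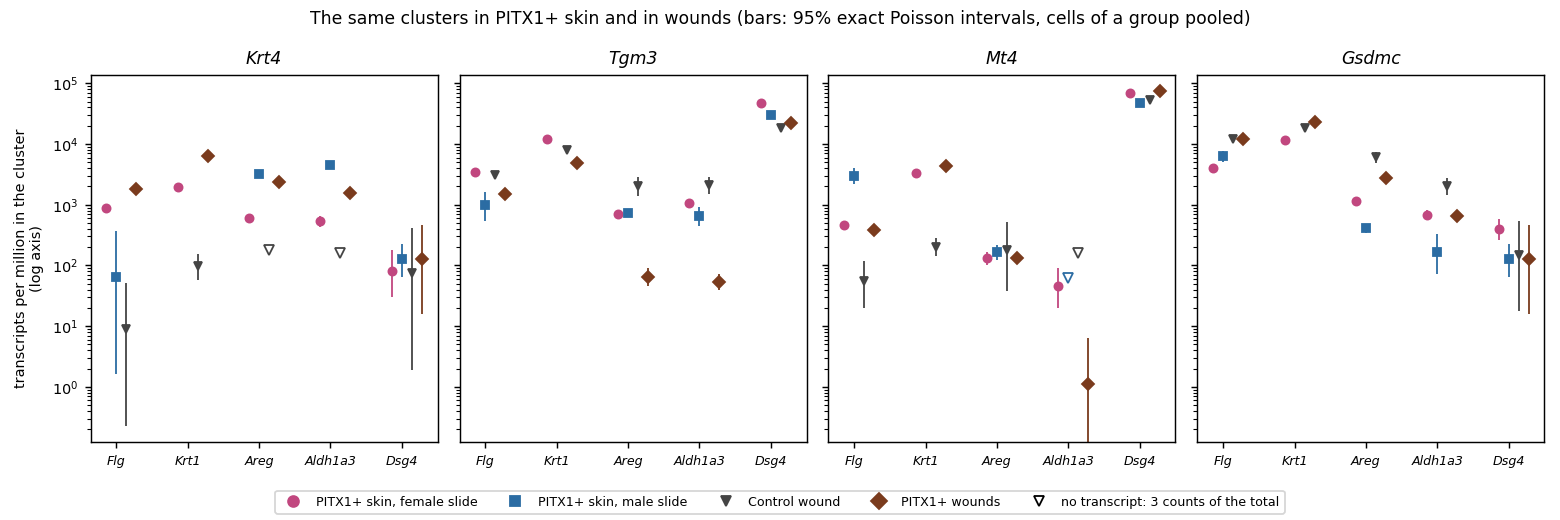
Level of 4 genes, in CPM on a log axis with 95% exact Poisson intervals, in 5 clusters, each named by its first leading gene, for PITX1+ skin of each slide, the Control wound and PITX1+ wounds, with groups of few cells left out and open triangles for 3 counts of the total where no transcript was found. In the cluster led by *Krt1*, *Stfa3* and *Cstdc5*, *Krt4* is 98.4 CPM in the Control wound and 6369 CPM in the pooled PITX1+ wounds, and *Mt4* and *Tgm3* are highest in the hair cluster led by *Dsg4*.

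*Chil3* in wounds lay almost wholly outside the epithelium, with 12 of 1262 transcripts in keratinocyte-like cells of the Control wound and 92 of 2509 and 165 of 5290 in the PITX1+ wounds. In unwounded skin, keratinocyte-like cells held 111 of 224, 59 of 114 and 8 of 100 transcripts in Control sections 1 to 3, and 329 of 820, 388 of 890, 66 of 438 and 22 of 291 in PITX1+ sections 1 to 4. Its level in keratinocyte-like cells, pooled, was 226 CPM in Control and 92.4 CPM in PITX1+ skin, and in vascular-like and mesenchymal-like cells 208 and 265 CPM, so the keratinocyte level is read as background. In immune-like cells *Chil3* was 223, 121 and 1146 CPM in Control sections 1 to 3 and 636, 321, 1545 and 779.5 CPM in PITX1+ sections 1 to 4. The groups overlapped, with Control section 3 above 3 of the 4 PITX1+ sections. The log2 difference was 0.52 (SE 0.45, adjusted p = 0.675 in edgeR, where 0.625% of 320 genes were called), with 12, 2 and 54 transcripts behind the Control values. In wounds the immune-like level of *Chil3* was 2303 CPM in the Control and 1820 and 2278 CPM in the PITX1+ wounds. Macrophage and dendritic-like cells held 59.9% of the *Chil3* transcripts of the Control wound and 46.5% of those of the PITX1+ wounds, and neutrophil-like cells 13.1% and 30.9%.

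Position within the epithelium was compared by the distance of a cell to the nearest stromal cell. In buccal mucosa the choice of suprabasal genes largely fixes this distance, so its values are a description. Keratinocyte-like cells with *Krt4* lay farther from stroma than those without it by 11.3 µm (SD 1.88, n = 6 sections), and the same held for *Tgm3* (11.02 µm, SD 1.57), *Chil3* (12.7 µm, SD 3.83) and *Gsdmc* (13.4 µm, SD 2.60), each in 6 of 6 sections. *Mt4* was the other way round in 5 of 6 sections (-20.8 µm, SD 12.6), that is, cells with *Mt4* lay closer to the stroma. In PITX1+ skin, cells with a transcript lay farther from stroma in 4 of 4 sections for *Krt4* (7.72 µm, SD 5.04), *Tgm3* (10.6 µm, SD 2.69), *Mt4* (9.39 µm, SD 1.36) and *Gsdmc* (10.2 µm, SD 1.87). The exact sign-flip permutation p was 0.125 for each, the smallest that 4 sections can give. For *Chil3* the difference was 2.32 µm (SD 3.45, exact permutation p = 0.375). In Control skin the cells with a transcript also lay farther from stroma, in 3 of 3 sections for *Mt4* (8.59 µm, SD 4.17), *Gsdmc* (8.08 µm, SD 9.99) and *Tgm3* (4.37 µm, SD 2.68), with an exact permutation p of 0.25, the smallest for 3 sections. *Krt4* had a value in 2 Control sections, with a mean of 1.73 µm and in 1 of 2 farther from stroma. Cells were not thinned for these distances, so cells with more transcripts are more likely to count as cells with a gene. The part of transcripts per cell in the distances and the difference between the conditions were not tested. Other panel genes were not compared in this way.

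Panel genes most like each of the 5 across the 45 clusters were found from the Pearson correlation of log2(CPM + 10), a description in which clusters share slides and depth. For *Krt4* they were *Sprr3* (0.83), *Krt78* (0.62) and *Barx2* (0.61), and for *Tgm3* they were *Krt78* (0.75), *Grhl3* (0.74) and *Dsg1a* (0.74). *Mt4* was most like *Wnt4* (0.69), *Dsg1a* (0.68) and *Grhl3* (0.64), and *Chil3* was like *Itgax* (0.60) and *Il7r* (0.58), genes of leukocytes. For *Gsdmc* they were *Serpinb3b* (0.94), *Grhl3* (0.86) and *Sprr2a3* (0.86). Among the 5 genes the closest pair was *Tgm3* and *Mt4* (0.92). In keratinocyte-like cells of PITX1+ against Control skin, *Sprr3* differed by -0.28 on the log2 scale (SE 0.59, adjusted p = 0.723 in edgeR) and *Barx2* by -0.03 (SE 0.20, adjusted p = 0.910), beside the change of 3.15 for *Krt4*.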

How the data were processed

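The Xenium slides were deposited as the instrument wrote them. The authors deposited counts of transcripts and control calls per cell without normalization, a quality score for each decoded transcript, and other quantities such as positions in µm. Software version and segmentation settings are not given in the sources used here. Counting the transcripts whose score reached 20 in each cell gave the same totals as the deposited counts in 100% of cells. Cells were joined into sections within 100 µm (200 µm on the wounded slide), keeping groups of at least 2000 cells, and numbered along the slide. The first section of a skin slide with 3 sections and the first 2 of the slide with 4 were taken as Control.

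Cells with at least 10 transcripts (426404 of 514895) were clustered by k-means (scikit-learn 1.9.0, 45 clusters on 40 principal components), leaving out the 5 genes and *Pitx1*, and named "-like" from marker lists. No cells were removed as doublets, and outlines can take up transcripts of neighbours. Depth was the distance to the 2nd percentile of keratinocyte-like positions in bands of 100 µm along the section. Counts were summed per section and compared in R 4.3.3 by the quasi-likelihood test of edgeR 4.0.16 (TMM scaling, filterByExpr, slide as covariate, Benjamini-Hochberg, threshold 0.05). DESeq2 1.42.0 was an alternative. Shares and distances were compared by exact permutation tests over sections (Python 3.11.15, scipy 1.17.1). Tested on simulated data for the keratinocyte-like comparison with 328 genes, edgeR recovered 45.6%, 95.5% and 100% of genes changed by 1, 2 and 3 on the log2 scale and called 2.34% of unchanged ones. The simulation used a spread shared by genes of similar level and no slide effect. These shares therefore do not hold for genes that vary more. In the data *Sprr2d* at 3.72 and *Cstdc5* at 2.32 missed the threshold (adjusted p = 0.0542 and 0.271 in edgeR). Intervals are at 95% and cover counting error only. The genes named are the 5, *Pitx1*, the 3 most similar panel genes of each (1 is not reported here), and the 4 largest differences in each gene list. Members and lists were chosen with earlier results of these data known. Alternatives were other scalings, filters on genes, cells and transcripts, 30 and 60 clusters, no covariate, no hair follicle-like clusters, each section left out, other thinning and other stroma definitions. Single slides and surface cells were added after seeing the data.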

Additional observations from a re-analysis of the deposited data

Results flagged for a closer look

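The change of *Gsdmc* in keratinocyte-like cells was unequal on the female and male slides (male minus female log2 change -3.43, SE 0.63, adjusted p = 0.0342 for the interaction in edgeR, and -2.71 with adjusted p = 0.0881 with library size in place of TMM). The change of *Pitx1* differed by 5.30 in the other direction (SE 0.82, adjusted p = 0.0197 in the same test). The male Control value of *Pitx1* rests on 2 transcripts in 1 section, so the size of its difference is uncertain. Among 30 tests for a section far from the rest of its group, none passed Dixon's criterion, which chance meets in about 1 in 20.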

How the results depend on the processing

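In keratinocyte-like cells 104 genes were called in either direction, against 166 with DESeq2, 34 without the slide covariate, 44 without hair follicle-like clusters, 4 within 150 µm of the surface and 38 to 121 with a section left out. Of the 5 genes, 3 were called, against 1 with transcripts over the nucleus, 1 without hair follicle-like clusters, 0 within 150 µm of the surface by edgeR (3 at an unadjusted p under 0.05) and 1 to 4 with a section left out. In whole sections 67 genes were called, against 8 without the slide covariate, 0 on the male slide alone (66 at an unadjusted p under 0.05) and 13 to 85 with a section left out. Of the 5 genes 3 were called there, against 0 without the covariate (3 unadjusted), 0 on the male slide alone (2 unadjusted) and 1 to 3 with a section left out. The slide difference of *Gsdmc* was lost with library size in place of TMM, which called 0 of the 5 (1 unadjusted).

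*Krt4* lost its call without Control section 1 (3.01, adjusted p = 0.0680 in edgeR), without Control section 2 (3.29, adjusted p = 0.0558) and over the nucleus (2.17, adjusted p = 0.0951), with log2 changes of 2.68 to 3.46 over all sections left out. *Tgm3* kept its call with each section left out (adjusted p = 0.00675 to 0.0407). *Mt4* had adjusted p = 0.0376 to 0.131 there. *Chil3* was called with DESeq2 (-0.95, adjusted p = 0.0375) and with transcripts of any quality (-0.90, adjusted p = 0.0373), and *Gsdmc* without Control section 3 (2.78, adjusted p = 0.00947 in edgeR). Each edgeR fit without Control section 3 keeps the slide covariate and so compares the conditions on the female slide alone. The direction turned for *Mt4* without hair follicle-like clusters (-0.55), *Gsdmc* on the male slide alone (-0.32), *Chil3* in immune-like cells on the male slide alone (-0.35, against 0.25 to 1.32 with a section left out), the share of cells with *Mt4* thinned to 40 transcripts (-0.273 percentage points), and the slide difference of *Krt4* (0.60) and *Mt4* (0.39) with library size. The causes were not tested. No paired analysis was possible because sections of the conditions carry no shared numbers. Control *Krt4* rests on 24, 22 and 7 transcripts, so its fold change carries the widest counting error, and a p that misses the threshold does not show that levels were equal.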

Other observations

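The share of cells with *Krt4* that also held *Gsdmc* or *Tgm3* differed in size between the slides, which was not tested. Among keratinocyte-like cells with 100 to 300 transcripts, *Gsdmc* was found in 49.5% and 59.1% of cells with *Krt4* and in 23.1% and 39.7% of cells without it in PITX1+ sections 1 and 2. In PITX1+ sections 3 and 4 the shares were 3.51% and 8.91% with *Krt4* against 4.35% and 8.45% without it. *Tgm3* gave 49.5% and 57.3% against 19.4% and 27.5% on the female slide, and 4.17% and 10.9% against 12.97% and 9.98% on the male slide. In PITX1+ wounds 1 and 2, *Gsdmc* was found in 39.2% and 53.6% of cells with *Krt4* and in 22.8% and 26.1% of cells without it. Cells with *Krt4* held more transcripts in all 6 sections (medians 151 to 184 against 135 to 155), and the part of depth in these shares was not tested.

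Near the wound bed the genes had different levels over all keratinocyte-like cells. Within 1000 µm of it *Krt4* was 50.3 CPM (30.7 to 77.7) in the Control wound and 9.82 CPM (2.02 to 28.7) farther away, 2326 against 1428 CPM in PITX1+ wound 1, and 5715 (5459 to 5980) against 1386 CPM in PITX1+ wound 2. *Gsdmc* was 11903 CPM near and 2700 CPM far in the Control wound, and 4836 against 4111 and 4860 against 5797 CPM in the PITX1+ wounds. *Mt4* was 196 CPM near and 4775 CPM far in the Control wound, 1841 against 1827 CPM in PITX1+ wound 1, and 156 against 1019 CPM in PITX1+ wound 2. Among cells within 150 µm of the surface alone, *Gsdmc* was 15495 CPM near and 4474 CPM far in the Control wound, 12149 against 11781 CPM in PITX1+ wound 1 and 14673 against 14719 CPM in PITX1+ wound 2. *Mt4* at that depth was 234 against 3160 CPM in the Control wound, 1689 against 3161 CPM in PITX1+ wound 1 and 597 against 2901 CPM in PITX1+ wound 2, so that PITX1+ wound 1 differed from its values over all depths. *Krt4* at that depth was 3055 against 2604 CPM in PITX1+ wound 1 and 12180 against 2794 CPM in PITX1+ wound 2. With 1 Control wound these are values without a test.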
